A study of Homo sapiens with 8 samples.

Results

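The promoters described here were those of the FOX and SOX transcription factor genes, in lists of H3K4me3 ChIP-seq peaks from U2OS cells, a human osteosarcoma line. H3K4me3, the trimethylation of lysine 4 on histone H3, marks promoters in an active or poised state. Members were all protein-coding autosomal genes in GENCODE whose symbol is FOX with a letter and number, or SOX with a number. This gave 67 genes, 49 FOX and 18 SOX, of 19111 autosomal protein-coding genes. FOXL2NB meets the symbol rule but is only a neighbour of FOXL2 and does not encode a forkhead protein. The clones were either wild type (WT) or ZBTB48 knockout (KO), ZBTB48 being a zinc finger protein found at telomeres and at a set of promoters. All clones had received 250 U/ml IFNγ for 24 h, so no untreated state enters any comparison. Each genotype had 3 ChIP libraries, each from a separate clone (WT_3, WT_4 and WT_5 as WT replicates 1 to 3, KO_C3, KO_C5 and KO_E2 as KO replicates 1 to 3), and the 2 WT inputs of the 8 samples were not used here. A clone can carry differences of its own besides its genotype.

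FOX proteins bind DNA through a forkhead domain and SOX proteins through an HMG box. Both families direct cell identity during development, such as SOX9 in cartilage, SOX2 in pluripotent and neural cells, FOXA1 to FOXA3 in endoderm and FOXC and FOXF proteins in mesenchyme. Other members act in most cells, such as FOXO1 and FOXO3 in stress and growth factor signalling and FOXM1 in cell division. In cells that do not use them, the CpG-rich promoters of developmental regulators are often held silent by Polycomb complexes.

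A promoter counted as called where a peak of the library reached within 1 kb of the 5′ end of its MANE Select transcript, the agreed reference transcript of a gene. FOXO6 has none, and its canonical transcript was used. The breadth of the mark was the covered length, the bp that peaks filled from 3 kb upstream to 3 kb downstream, out of a window of 6001 bp. The 6 autosomal lists held 21025 to 25545 peaks and fell into a pair of kinds. WT replicates 1 and 2 had median fold enrichments of 13.6 and 14.1, as the peak caller gave them, and median widths of 2310 and 2365 bp. WT replicate 3 and the KO libraries had median fold enrichments of 4.18 to 4.63 and median widths of 1271 to 1483 bp. The 2 inputs are labelled Input_3 and Input_4, the numbers that clones WT_3 and WT_4 of WT replicates 1 and 2 carry, and whether the caller used them for these lists was not tested. Between genotypes, WT replicate 3 is therefore given on its own against the KO libraries beside each result. The lists hold no reads, so the depth of each library is unknown here. Of 8 mesenchyme and osteoblast marker genes, 5 were called in all 6 libraries, and ALPL, COL1A2 and TWIST1 in none. Of 8 markers of other cell types, EPCAM was called in all 6 and the other 7 in none.

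Of the 67 members, 35 (52.2%) were called in all 6 libraries, against 65.8% of all autosomal protein-coding promoters. A further 26 members (38.8%) were called in no library, against 29.6% of all promoters. The remaining 6 (8.96%), among them FOXH1, FOXI2, FOXL3, FOXS1 and SOX6, were called in 1 to 5 libraries, against 4.6% of all promoters. Leaving out the 6 FOXD4 copies, where calls may be limited as described below, and FOXL2NB, 35 members were called in all 6 and 19 in none. Below are the 200 bases before the 5′ end for 3 promoters called in every library and 3 called in none, shown because CpG-rich and CpG-poor promoters occur in both sets. They are RefSeq sequences on GRCh38.p14, written 5′ to 3′ on the gene's strand, with every CG dinucleotide in capitals. SOX12 (chr20:325352-325551, plus strand, 33 CG), FOXC1 (chr6:1609715-1609914, plus strand, 25 CG) and FOXP2 (chr7:114414615-114414814, plus strand, 0 CG) were called in all 6 libraries. FOXD3 (chr1:63322367-63322566, plus strand, 21 CG), FOXI3 (chr2:88452694-88452893, minus strand, 28 CG) and FOXN1 (chr17:28506148-28506347, plus strand, 7 CG) were called in none.
SOX12: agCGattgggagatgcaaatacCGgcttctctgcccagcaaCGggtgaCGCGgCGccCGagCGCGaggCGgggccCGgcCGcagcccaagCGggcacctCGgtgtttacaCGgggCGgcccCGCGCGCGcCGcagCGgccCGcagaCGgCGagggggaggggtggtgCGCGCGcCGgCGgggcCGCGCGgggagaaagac
FOXC1: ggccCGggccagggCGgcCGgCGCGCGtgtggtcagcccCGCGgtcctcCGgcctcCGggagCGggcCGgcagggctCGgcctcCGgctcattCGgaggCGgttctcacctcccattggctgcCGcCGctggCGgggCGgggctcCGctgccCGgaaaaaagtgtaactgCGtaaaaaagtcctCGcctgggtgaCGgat
FOXP2: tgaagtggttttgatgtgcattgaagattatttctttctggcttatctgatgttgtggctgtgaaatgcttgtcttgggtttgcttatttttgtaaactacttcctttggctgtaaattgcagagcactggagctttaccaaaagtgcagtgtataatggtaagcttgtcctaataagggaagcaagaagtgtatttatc
FOXD3: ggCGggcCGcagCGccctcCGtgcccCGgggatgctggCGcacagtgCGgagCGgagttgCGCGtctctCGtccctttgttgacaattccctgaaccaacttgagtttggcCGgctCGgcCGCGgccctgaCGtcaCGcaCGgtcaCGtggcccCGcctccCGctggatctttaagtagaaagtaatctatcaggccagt
FOXI3: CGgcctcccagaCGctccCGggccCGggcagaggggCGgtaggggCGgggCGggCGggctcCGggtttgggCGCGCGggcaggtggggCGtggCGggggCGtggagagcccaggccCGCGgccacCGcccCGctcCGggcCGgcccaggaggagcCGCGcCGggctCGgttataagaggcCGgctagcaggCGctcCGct
FOXN1: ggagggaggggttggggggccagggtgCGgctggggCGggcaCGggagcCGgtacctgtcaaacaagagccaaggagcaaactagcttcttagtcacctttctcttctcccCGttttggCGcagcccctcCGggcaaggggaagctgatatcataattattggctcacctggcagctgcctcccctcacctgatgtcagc

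**Figure D1:**
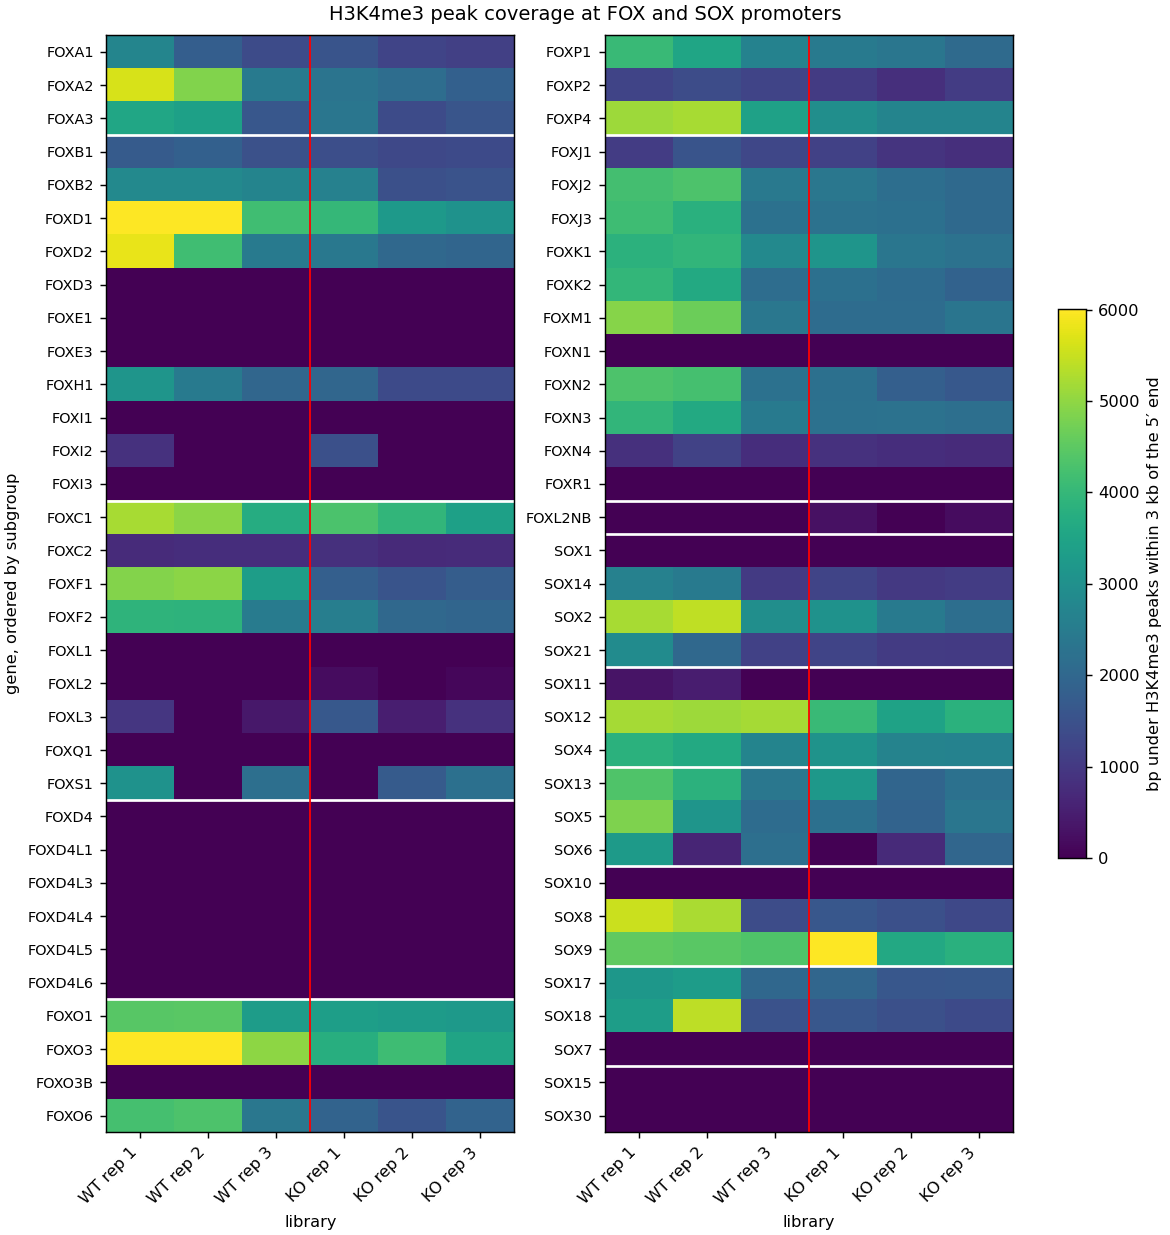
Covered length at the FOX and SOX promoters (lines, ordered by subgroup with white lines between subgroups) in each of the 6 libraries (columns, a red line between WT and KO), from 0 to 6001 bp within 3 kb of the 5′ end. The 6 FOXD4 copies were dark throughout, and 21 members had no covered bp in any library.

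Presence of the mark differed between and within subgroups. All 3 FOXA genes, pioneer factors of endoderm, and all 3 autosomal FOXP genes were called in all 6 libraries. At FOXA3 the peak of WT replicate 3 and KO replicates 2 and 3 lay 664, 775 and 683 bp upstream of the 5′ end. SYMPK starts on that side on the other strand at -1179 bp. At FOXA1 the peak of WT replicate 3 and the KO libraries also lay upstream, 39 to 117 bp away, with TTC6 starting on the other strand at -380 bp. Of the 11 FOXJ, FOXK, FOXM, FOXN and FOXR genes, 9 were called in all 6, and FOXN1, the thymic epithelial regulator, and FOXR1 in none. Among the FOXO genes, FOXO1, FOXO3 and FOXO6 were called in all 6, and the FOXO3 copy FOXO3B in none. Of the 9 FOXC, FOXF, FOXL, FOXQ and FOXS genes, FOXC1, FOXF1 and FOXF2 were called in all 6, FOXL3 and FOXS1 in some, and FOXC2, FOXL1, FOXL2 and FOXQ1 in none. Of the FOXB, FOXD, FOXE, FOXH and FOXI genes other than the FOXD4 copies, only FOXB2, FOXD1 and FOXD2 were called in all 6.

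None of the 6 FOXD4 copies was called in any library. These genes are copies of each other and the authors removed reads that map to several places, so a missing peak there may not describe the mark. How alike the sequences around their 5′ ends are was not tested. GC content in the 1001 bp there ranged from 43.4% at FOXD4L5 to 59.0% at FOXD4L4. FOXO3B, as a copy of FOXO3, may be limited in the same way, which was not tested.

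Most SOX subgroups held both called and uncalled genes. In SOXB, SOX2, SOX14 and SOX21 were called in all 6 libraries and SOX1 in none. In SOXC, SOX4 and SOX12 were called in all 6 and SOX11 in none. In SOXE, SOX8 and SOX9 were called in all 6 and SOX10, the neural crest and melanocyte regulator, in none. In SOXF, SOX17 and SOX18 were called in all 6 and SOX7 in none. In SOXD, SOX5 and SOX13 were called in all 6 and SOX6 in 5. The testis gene SOX30 and SOX15 were called in none.

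Other developmental families gave similar shares called in all 6 libraries, with 22 of 39 HOX genes (56.4%), 5 of 9 PAX, 6 of 12 TBX and 5 of 8 LHX genes. These are counts side by side and were not tested against each other. Lists of genes that work with the members were also counted. All 16 FOXO pathway genes and all 8 FOXM1 targets, genes of mitosis, were called in all 6 libraries. Of 10 cartilage genes under SOX9 control, 5 were called in all 6, while COL2A1, COL9A1, COL11A2, COMP and MATN1 were called in none while SOX9 itself was called throughout. COL2A1 nevertheless had 970 to 1777 bp covered within 3 kb in every library, outside the window of 1 kb.

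Among the 26 uncalled members, 17 had no peak within 10 kb in any library. For SOX10 the nearest peak was 15029 to 29968 bp away, and for FOXN1 21851 to 45306 bp. FOXD3, FOXQ1, SOX1 and SOX15 had their nearest peak 3666 to 5273 bp away in every library. FOXB1 is the exception, since every library had a peak 1169 to 1587 bp from its 5′ end. It covered 1731, 1832 and 1488 bp in WT replicates 1 to 3 and 1434, 1293 and 1349 bp in the KO libraries. Likewise FOXC2 had a peak 2158 to 2294 bp away in all 6 libraries, covering 707 to 843 bp. A call at FOXB1 and FOXC2 thus depends on the window of 1 kb. SOX11 had 322 and 488 bp covered in WT replicates 1 and 2 and none in the other 4 libraries. In those 4 its nearest peak lay 3080 to 3155 bp away, just outside the window of 3 kb. Within 10 kb SOX11 had 3291, 3332 and 2272 bp covered in WT and 2316, 2398 and 2063 bp in KO. FOXL2 had 194 and 117 bp, and the divergent FOXL2NB 274 and 197 bp, in KO replicates 1 and 3 only. In KO replicate 2 the nearest peak lay 3114 bp from FOXL2 and 3034 bp from FOXL2NB, just outside this window. In the WT libraries it lay 10100 to 10475 bp away.

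Most uncalled members were CpG-rich. CpG observed over expected, the number of CG dinucleotides relative to that expected from base content in the 1001 bp around the 5′ end, had a median of 0.743 in the 26 uncalled members. The median was 0.267 in the 5658 uncalled promoters of all genes. Their median GC content was 62.1%, against 52.1%. In the 35 members called in all 6 libraries the medians were 0.84 and 69.7% GC. Taking a ratio of at least 0.6 as CpG-rich, 54 members qualified. Of these, 32 (59.3%) were called in all 6 libraries and 19 (35.2%) in none. The 19 include FOXD4, FOXD4L3 and FOXD4L4, where a missing peak may not describe the mark. They also include FOXB1 and FOXC2, with peaks between 1 and 3 kb away in every library, and the divergent neighbours FOXL2 and FOXL2NB. Of all 12787 CpG-rich promoters, 88.7% were called in all 6 and 8.65% in none. FOXI3 has a ratio of 1.02 with 129 CG dinucleotides in this window, and its nearest peak lay 52088 to 101508 bp away.

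The reverse was seen at FOXP2, a regulator of brain circuits of speech. Its window held 7 CG dinucleotides (ratio 0.18), yet every library had a peak there. It covered 1228, 1405 and 1225 bp in WT and 1052, 802 and 1068 bp in KO. SOX5, a partner of SOX9, was also called in all 6 with a ratio of 0.343 at its MANE Select end. SOX4 had a ratio of 0.581. These 3 were the only members called in all 6 below 0.6.

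**Figure D2:**
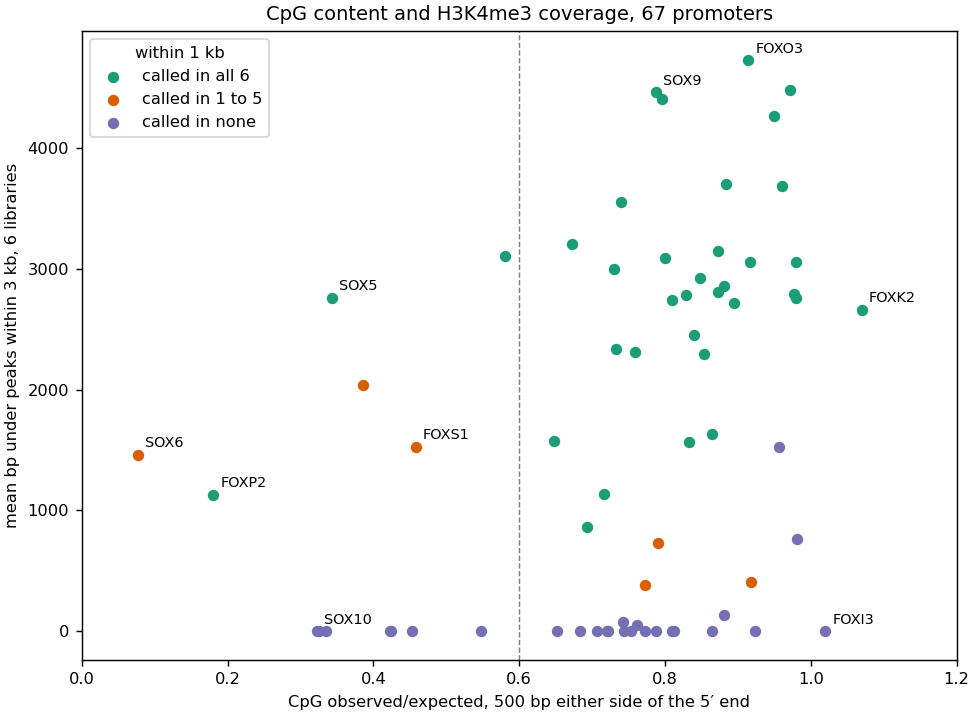
CpG observed over expected in the 1001 bp around the 5′ end (x axis) against the mean covered length over the 6 libraries in bp (y axis) for the 67 promoters, coloured by the number of libraries calling them, with the dashed line at 0.6. Of the 54 promoters at or right of the line, 19 were called in no library, among them FOXD4, FOXD4L3 and FOXD4L4.

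Sequence motifs were searched on both strands of the 300 bases from 250 before to 50 after the RefSeq start, which 47 of the 67 members have. The telomeric repeat TTAGGG, which ZBTB48 binds, was in 3 of them (6.38%; FOXI2, FOXO3B and FOXP4), against 8.78% of 14622 promoters of all genes. The forkhead motif TGTTTAC was in 1 (2.13%; SOX12), against 2.65%. The SOX motif ACAATGG was in 2 (4.26%; FOXJ3 and SOX5), against 2.36%. None of these motifs contains another. A match describes letters in this window and not a bound site. TTAGGG does not stand for all ZBTB48 sites, since the CIITA promoter sequence that the authors crystallised with ZBTB48 holds GGG without it.

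The broadest coverage over the 6 libraries belonged to FOXO3, SOX12, SOX9, FOXD1, FOXC1 and FOXP4. FOXO3 (ENSG00000118689, chromosome 6, 5′ end at 108560917, plus strand) is a stress-response factor. Its whole window of 6001 bp was covered in WT replicates 1 and 2, 4970 bp in WT replicate 3, and 3757, 4145 and 3502 bp in the KO libraries. WT replicate 3 and the 3 KO libraries had 2 peaks with the 5′ end in the gap between them, 184 to 229 bp from the nearest, whereas WT replicates 1 and 2 had a single peak. FOXC1 (ENSG00000054598, chromosome 6, 1609915 to 1613897), a regulator of mesenchyme and skull bones, had 5227, 4960 and 3713 bp covered in WT and 4311, 3950 and 3406 bp in KO. The groups overlapped, with WT replicate 3 below KO replicates 1 and 2. FOXD1, a kidney stroma factor, was covered over 6001, 6001 and 4164 bp in WT and 3987, 3222 and 3050 bp in KO, and the groups did not overlap.

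SOX9 (ENSG00000125398, chromosome 17, 72121020 to 72126416, plus strand), the master regulator of cartilage, had a peak reaching past the 3 kb window in 5 libraries downstream. Covered length in the window was 4535, 4456 and 4349 bp in WT and 6001, 3613 and 3808 bp in KO replicates 1 to 3. The means were 4447 ± 93.4 bp (SD, n = 3) and 4474 ± 1326 bp (SD, n = 3), a difference of -27.3 bp (two-sided exact permutation p = 1). KO replicate 1 stood highest and KO replicates 2 and 3 lowest. The window hides part of the spread, since the peaks were 7381, 6416 and 4822 bp wide in WT and 7499, 3613 and 4110 bp in KO. Within 10 kb, which holds them whole, the difference was 1132 bp in favour of WT and the groups still overlapped. In KO replicate 1 the peak began 3816 bp upstream of the 5′ end, and in the other 5 libraries 807 to 1534 bp upstream. Without KO replicate 1 every WT value was above both KO values, a difference of 736.2 bp.

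**Figure D3:**
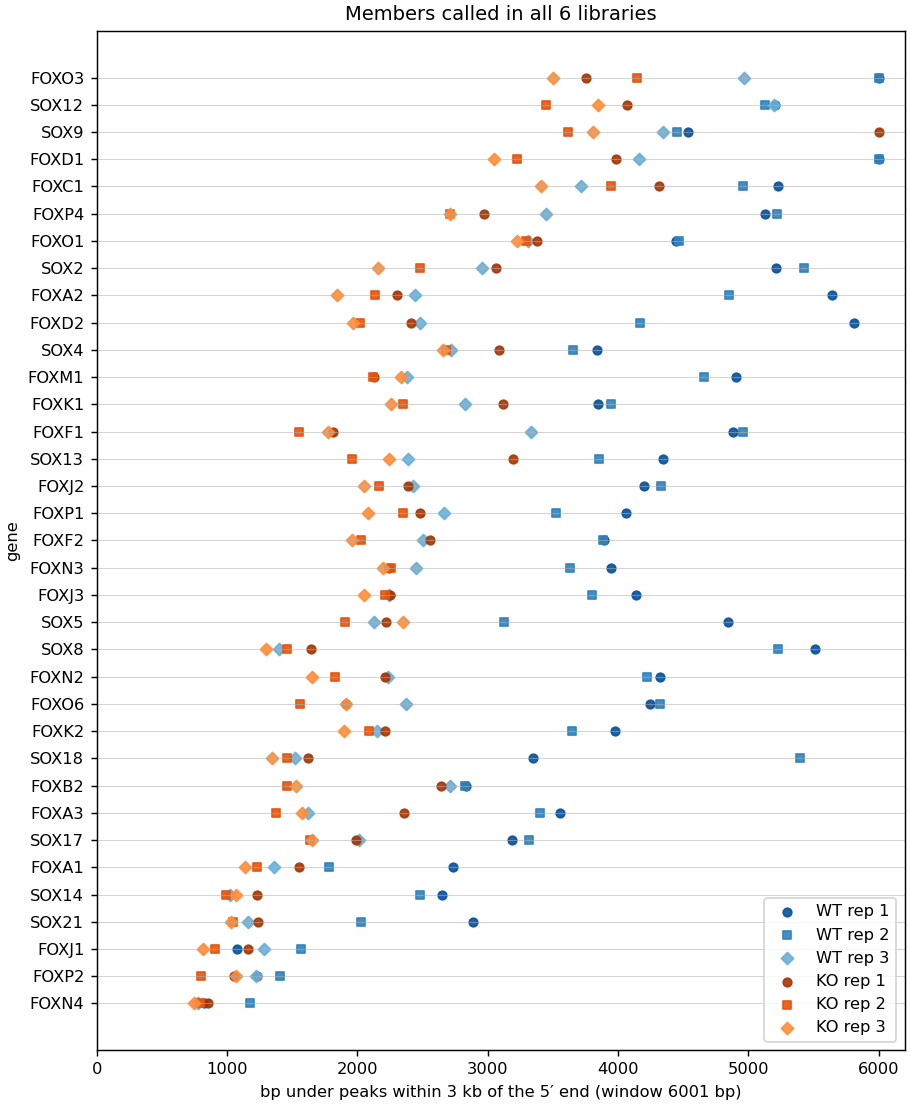
Covered length within 3 kb of the 5′ end (x axis, bp) for the 35 members called in all 6 libraries (lines, ordered by their mean), with a point per library, blue for WT and orange for KO. WT replicates 1 and 2 lay to the right at most promoters, and WT replicate 3 lay near the KO libraries except at genes such as FOXF1, SOX12 and FOXO3.

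To ask whether the mark at these genes changed without ZBTB48, the number of called members was compared first. The WT libraries called 41, 38 and 38 members and the KO libraries 38, 38 and 39. The means were 39.0 ± 1.73 (SD, n = 3) and 38.3 ± 0.577 (SD, n = 3), a difference of 0.667 that is within the spread of the libraries. WT replicate 3 was 0.333 below the KO mean. No member was called in 3 WT and 0 KO libraries, against 0.105% of all promoters, and none in 3 KO and 0 WT libraries, against 0.0209%.

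Mean covered length over the 67 members was 2348, 2144 and 1447 bp in WT and 1431, 1187 and 1215 bp in KO. The means were 1979 ± 472.4 bp (SD, n = 3) and 1278 ± 133.7 bp (SD, n = 3), a ratio of 1.55. All 19111 promoters gave the same ratio of 1.55, with 2008 ± 489.3 and 1295 ± 117.8 bp. WT replicate 3 exceeded the KO mean by 169.1 bp over the members, 1.13 times, and by 148.0 bp over all promoters, 1.11 times. Over the members called in all 6 libraries the median difference between WT and KO means was 1193 bp, and 1017 bp over all such promoters. For WT replicate 3 alone these medians were 226.0 and 165.7 bp. Thus most of the WT excess at these genes lay in WT replicates 1 and 2, and its size was close to that at other promoters.

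For 17 members (25.4%) the covered length of every WT library exceeded that of every KO library, against 37.1% of all promoters. With 3 against 3 libraries this gives a two-sided exact permutation p of 0.1, the smallest possible, for a single gene. They were FOXA2, FOXB1, FOXB2, FOXD1, FOXD2, FOXF1, FOXJ2, FOXM1, FOXN2, FOXN3, FOXO3, FOXO6, FOXP1, FOXP2, FOXP4, SOX12 and SOX17. All 3 FOXP genes and 2 of 4 FOXO genes were among them, but none of the SOXB, SOXD and SOXE genes. Taking the 5′ end of any transcript instead, FOXP1 and FOXP2 were not separated and the SOXD gene SOX6 was. At the 5′ ends used throughout, no member had every KO library above every WT library, against 0.0837% of all promoters. The count rests on single libraries, and it was 35 without WT replicate 3, where 65.8% of all promoters were separated in this way, and 32 without KO replicate 1, against 58.0%. WT replicate 3 alone was above every KO library at 19 members (28.4%), against 39.3% of all promoters, and below every KO library at FOXL3 only (1.49%), against 1.84%. The share of members was thus not above the background in either direction.

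FOXF1 (ENSG00000103241, chromosome 16, 86510527 to 86515422, plus strand), a regulator of lung and gut mesenchyme, was the member with the largest difference. Covered length was 4884, 4957 and 3336 bp in WT and 1810, 1555 and 1773 bp in KO. All WT libraries, replicate 3 included, lay well above all KO libraries. The means were 4392 ± 915.5 bp (SD, n = 3) and 1713 ± 137.8 bp (SD, n = 3), a difference of 2680 bp or 2.56 times (two-sided exact permutation p = 0.1, the smallest possible). Most of it lay on the downstream side. The peak ran to 2812, 2335 and 1913 bp downstream of the 5′ end in WT and to 543, 294 and 536 bp in KO. Upstream it began at 2071, 2621 and 1422 bp in WT and at 1266, 1260 and 1236 bp in KO. By fold enrichment the peak stood at the 47.7, 48.5 and 3.08 percentiles of its list in WT. It stood at 30.9, 44.6 and 35.4 in KO, so the longer peak of WT replicate 3 ranked lower than the KO peaks. The long noncoding RNA FENDRR starts on the other strand at -1478 bp from the FOXF1 5′ end. The neighbouring family member FOXC2 was uncalled in all 6 libraries.

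WT replicate 3 exceeded every KO library by at least 1000 bp at 2 members (2.99%), FOXF1 and SOX12, against 1.05% of all promoters. The lead was 1526 bp at FOXF1, and 54 of all 19111 promoters had a lead of at least 1500 bp. SOX12 (ENSG00000177732, chromosome 20, 325552 to 330224, plus strand), a SOXC factor of developing nerve and mesenchyme, had 5203, 5127 and 5201 bp covered in WT and 4072, 3450 and 3844 bp in KO. All WT values were above the KO values. Their likeness is partly set by the window, since the WT peaks ran past 3 kb downstream and were 6935, 6595 and 5683 bp wide. The means were 5177 ± 43.3 bp (SD, n = 3) and 3789 ± 314.7 bp (SD, n = 3), a difference of 1388 bp (two-sided exact permutation p = 0.1, the smallest possible). The peak began 2202, 2126 and 2200 bp upstream in WT and 1295, 538 and 843 bp in KO. Downstream it ended at 4732, 4468 and 3482 bp in WT and at 2776, 2911 and 4330 bp in KO, so KO replicate 3 reached past WT replicate 3 on this side. FOXO3 followed with a lead of 825 bp and FOXP4 with 472 bp. Within 10 kb the lead of WT replicate 3 was 883 bp at FOXF1, 509 bp at SOX12, 874 bp at FOXO3 and 472 bp at FOXP4, so no member of these reached 1000 bp there.

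**Figure D4:**
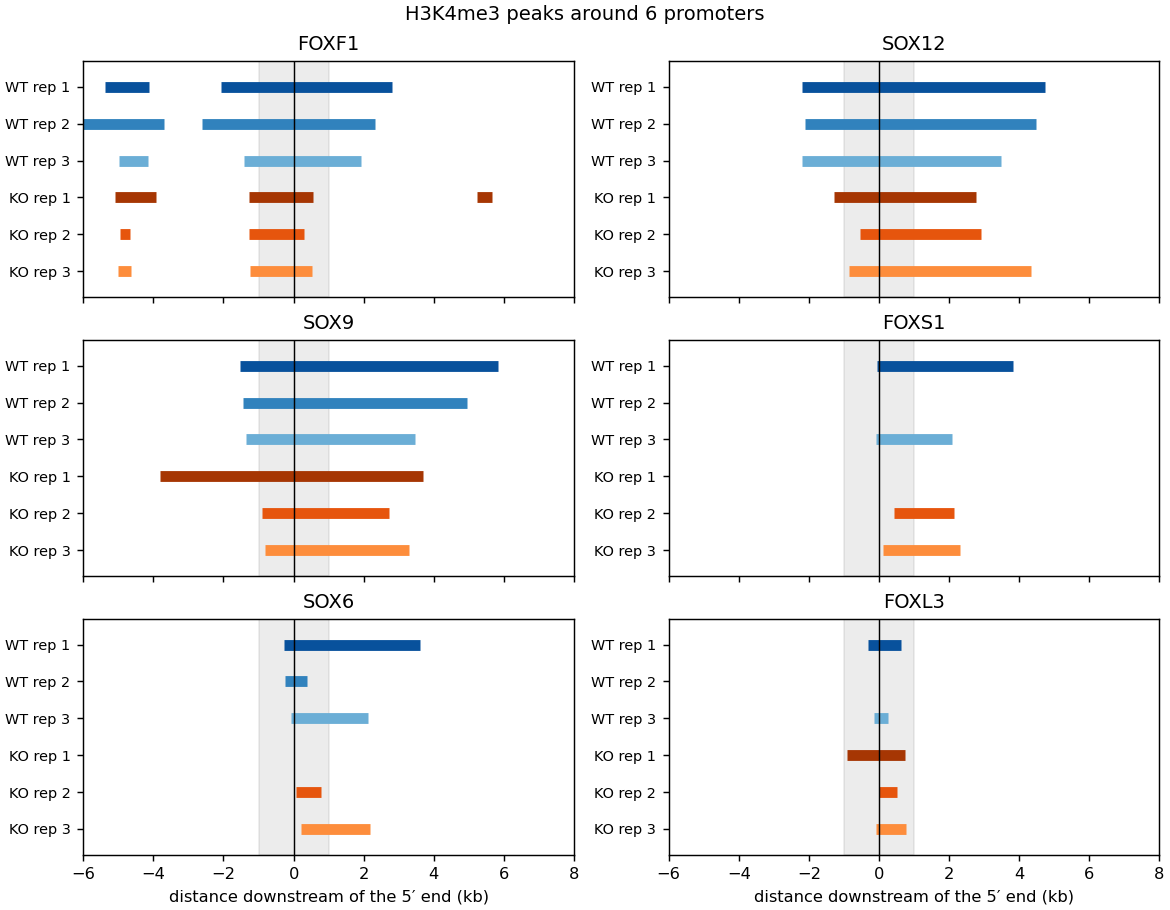
Peaks of each library (bars, 1 line per library) around 6 promoters, by distance from the 5′ end in kb, positive downstream, with grey for the window of 1 kb. The FOXF1 peaks ended 294 to 543 bp downstream in KO and 1913 to 2812 bp in WT, and FOXS1 had no peak in WT replicate 2 and KO replicate 1.

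Large differences that came mostly from WT replicates 1 and 2 were seen at SOX8 and SOX2. At SOX8, a SOXE gene like SOX9, covered length was 5509, 5231 and 1399 bp in WT and 1640, 1456 and 1298 bp in KO. WT replicate 3 lay between KO values, and the difference of 2582 bp did not separate the groups (two-sided exact permutation p = 0.3). At SOX2, covered length was 5213, 5429 and 2954 bp in WT and 3067, 2480 and 2158 bp in KO, and WT replicate 3 was below KO replicate 1 but 385.7 bp above the KO mean. FOXA2 and FOXD2 were close cases. FOXA2, an endoderm factor, had 5644, 4856 and 2441 bp in WT and 2305, 2135 and 1846 bp in KO. FOXD2 had 5812, 4171 and 2477 bp in WT and 2408, 2022 and 1966 bp in KO. In both, WT replicate 3 was above every KO library, by 136 and 69 bp.

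Several members with roles in bone and mesenchyme had WT replicate 3 among the KO values. FOXO1, a factor of osteoblast metabolism, had 4442, 4465 and 3312 bp in WT and 3375, 3297 and 3227 bp in KO. SOX4, active in osteoblast progenitors, had 3838, 3654 and 2718 bp in WT and 3085, 2681 and 2656 bp in KO. FOXF2 had 3893, 3887 and 2502 bp in WT and 2557, 2026 and 1958 bp in KO. In these 3 genes WT replicate 3 lay within the KO range. FOXP1 was separated, with 4059, 3522 and 2667 bp in WT and 2480, 2351 and 2083 bp in KO. SOX5 was not, with 4842, 3125 and 2130 bp in WT and 2217, 1904 and 2349 bp in KO. FOXM1, which drives mitotic genes and shares a divergent promoter with RHNO1, starting at -49 bp, had 4905, 4663 and 2380 bp in WT and 2125, 2120 and 2337 bp in KO. Its groups were separated, with WT replicate 3 only 43 bp above the highest KO library. The endoderm factor FOXA1 had 2736, 1785 and 1361 bp in WT and 1549, 1229 and 1139 bp in KO, and its groups overlapped.

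Members called in some libraries only divided the clones in different ways. FOXS1 (ENSG00000179772, chromosome 20, 31844303 to 31845604, minus strand), a factor of perivascular cells, had 3061, 0 and 2181 bp in WT and 0, 1720 and 2209 bp in KO. WT replicate 2 and KO replicate 1 thus had no peak, the nearest being 23268 and 22505 bp away, while the other 4 libraries had 1720 to 3061 bp covered. The means were 1747 ± 1576 bp (SD, n = 3) and 1310 ± 1160 bp (SD, n = 3), which did not separate (two-sided exact permutation p = 0.8).

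SOX6, another partner of SOX9, had 3271, 624 and 2185 bp at its MANE Select end in WT and 0, 708 and 1983 bp in KO. KO replicate 1 had no peak, WT replicate 2 and KO replicate 2 were low, and the groups overlapped. SOX6 has 17 annotated 5′ ends, and 4 of them were called in all 6 libraries. The variable end is poor in CpG (ratio 0.0771).

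FOXI2 had 849 bp in WT replicate 1 and 1458 bp in KO replicate 1, and none elsewhere. Its nearest peak in the other 4 libraries was 169451 to 169834 bp away. FOXL3 had 938, 0 and 397 bp in WT and 1653, 512 and 861 bp in KO. It was the member with the largest KO excess, a WT minus KO of -563.7 bp, but WT replicate 1 lay within the KO range (two-sided exact permutation p = 0.3). The FOXL3 peak of WT replicate 1 was among the weakest of its list, at the 0.0231 percentile of fold enrichment.

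FOXH1, a partner of SMAD proteins in nodal signalling, was called only in WT replicates 1 and 2. The covered length was highest in these libraries but was not 0 in the others, with 3130, 2442 and 1974 bp in WT and 1983, 1345 and 1337 bp in KO. The peak came from upstream, where PPP1R16A starts on the other strand at -2133 bp. It covered the 5′ end of FOXH1 in WT replicate 1 and ended 559 bp from it in WT replicate 2. In WT replicate 3 and KO replicate 1 it ended 1027 and 1018 bp away, just outside the window of 1 kb, and in KO replicates 2 and 3 it ended 1656 and 1664 bp away. This call thus turned on where the peak from upstream ended.

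How strong a peak was within its own list differed with the kind of list. Each member's peak was ranked by fold enrichment, averaged along the peak by the caller, as a percentile of its list. The SOX9 peak stood at the 98.2 and 90.9 percentiles in WT replicates 1 and 2. It stood at 0.996 in WT replicate 3 and at 1.36, 2.4 and 1.65 in the KO libraries. FOXC1 likewise stood at 88.3 and 90.5 and then at 0.612, 0.83, 0.79 and 1.21. The narrow FOXN4 peak, 748 to 1179 bp wide, did the opposite, at 31.2 and 32.7 and then at 84.1, 92.6, 88.2 and 94.5.

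Across the 35 members called in all 6 libraries, Spearman's rho between this percentile and covered length was 0.36 and 0.33 in WT replicates 1 and 2, but -0.93 in WT replicate 3 and -0.88, -0.91 and -0.91 in the KO libraries. These are descriptions across genes of 1 library, and genes are not replicates. All 12573 promoters called in all 6 libraries behaved alike, with 0.35 and 0.32 against -0.83 to -0.88. In WT replicate 3 and the KO libraries the broadest FOX and SOX domains thus carried the lowest averaged enrichment. Requiring a fold enrichment of at least 4 left 10 members called in all 6 libraries in place of 35. It left 4 in place of 17 with every WT above every KO library, against 22.4% of all promoters. FOXF1 and SOX12 were not among these 4.

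**Figure D5:**
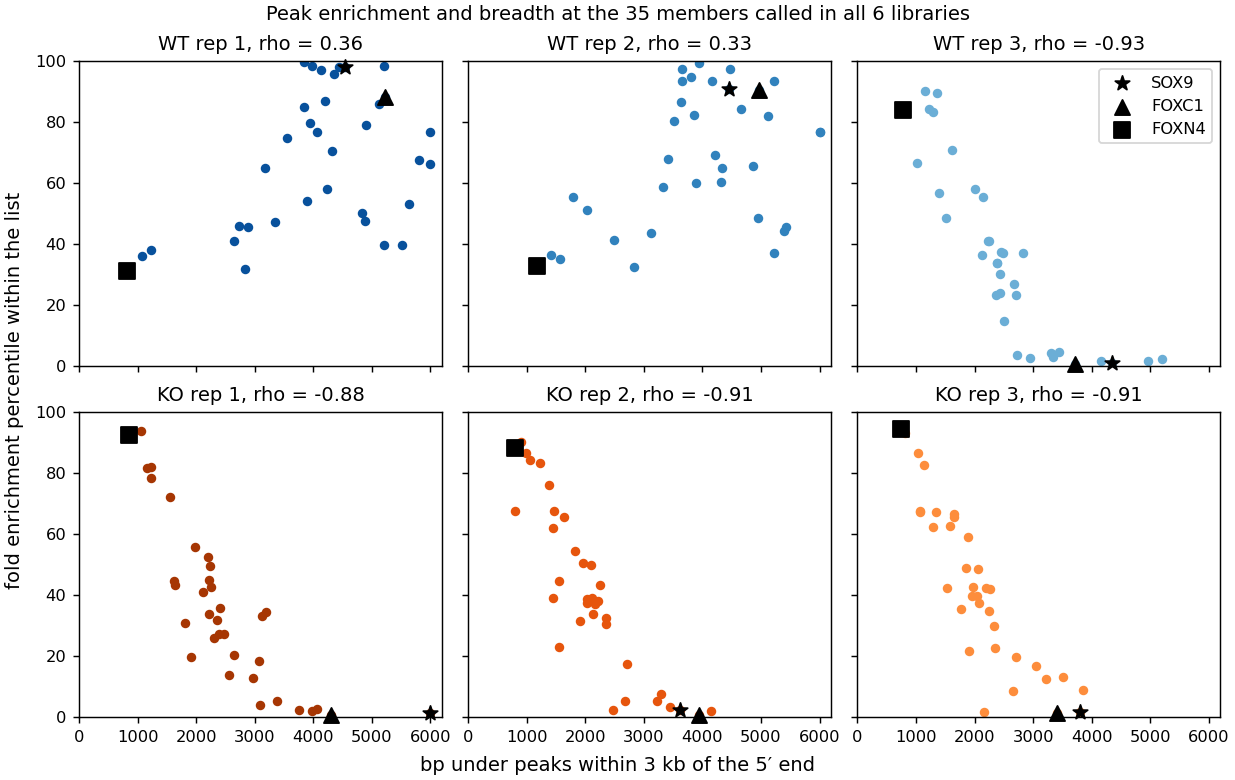
Percentile of fold enrichment within the list (y axis) against covered length in bp (x axis) for the 35 members called in all 6 libraries, 1 panel per library, with SOX9, FOXC1 and FOXN4 in black. SOX9 and FOXC1 stood at 88.3 to 98.2 in WT replicates 1 and 2 and 0.612 to 2.4 in the other 4 libraries. Not every broad promoter stood high in WT replicates 1 and 2, as SOX8 stood at 39.6 and 37.0. FOXP4 stood at 12.7, 17.5 and 19.7 in the KO libraries.

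Covered length around these genes was larger downstream than upstream in most cases. Over the 35 members called in all 6 libraries the median covered length was 1668 bp upstream and 2812 bp downstream in WT replicate 1. It was 807 bp and 1247 bp in KO replicate 3, and nearly even at 1079 bp and 1162 bp in KO replicate 1. Each side was counted to 3 kb only, so peaks that ran further were cut, and all promoters were not measured in this way. Between 20 and 25 of the 35 had more covered bp downstream, depending on the library. The 5′ end itself lay under a peak in all 6 libraries at 27 of the 35. Within 10 kb, the members' mean covered length averaged 2876 ± 798.2 bp in WT (SD, n = 3) against 1762 ± 214.1 bp in KO (SD, n = 3), and WT replicate 3 was 213.0 bp above the KO mean. It was 2527 and 1571 bp over all promoters.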

How the data were processed

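H3K4me3 ChIP-seq was performed on 3 WT and 3 ZBTB48 KO U2OS clones treated with IFNγ. Groups and replicate numbers came from the labels. According to the methods and processing notes, the authors used trimmomatic for trimming and bowtie2 (2.3.5.1) for alignment to GRCh38. They discarded multimapping reads and duplicates, and ran MACS2 (2.1.1.2) in broad mode on each library with a q-value cutoff of 0.05. Whether an input was given to the caller is not given in the sources used here. The deposited lists hold positions, an integer display score (not used), fold enrichment as a ratio to local background, and −log10 p and −log10 q, each averaged along a peak by the authors' caller. Fold enrichment was ranked within a list only. A missing peak means only that the caller's threshold was not passed.

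Peaks on chromosomes 1 to 22 were set against GENCODE release 44, using MANE Select 5′ ends for 66 members. A call needed at least 1 bp of overlap. Single genes were compared by two-sided exact permutation over the 20 assignments of the libraries, whose smallest p is 0.1. Each library came from a separate clone, so these p-values measure the spread between libraries, with clone and library not told apart. In WT this spread also holds the difference between the kinds of list. Members, gene lists and tests were chosen with earlier results of these data known. Genes given in full were those called in 1 to 5 libraries, the 6 with the largest mean coverage, the 6 largest differences in each direction, the 4 largest leads and deficits of WT replicate 3, and a list of bone, cartilage, mesenchyme, pluripotency and endoderm genes. The values of 1 member are not reported here, though it is counted in the totals. Some members with no coverage met this rule only as ties at 0. FOXN4 and FOXB1, like other genes outside the rule, were chosen after their values were seen. The 16 alternatives are in the closing section. Python 3.11.15, numpy 2.4.6, scipy 1.17.1, pandas 2.3.3 and matplotlib 3.10.9 were used. The steps were tested on simulated lists. At most 2 peaks were identical between any lists. RefSeq promoters matched 47 of 67 members by symbol.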

Additional observations from a re-analysis of the deposited data

How the results depend on the processing

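The count of members called in all 6 libraries stayed at 34 to 38, and that called in none at 19 to 27, under every alternative other than a fold enrichment of at least 4. That setting gave 10 members called in all 6, a difference of 9.33 called members, a mean difference of 1075 bp and 4 separated members, those with every WT above every KO library. Of all promoters, 22.4% were separated in that setting. Requiring this enrichment removes broad peaks of low averaged enrichment by construction. Exchanging the windows of 1 and 3 kb gave -0.667 members, 174.4 bp and 6 separated members, against 27.2% of all promoters separated. A window of 10 kb gave 1115 bp, and 2 members with every KO above every WT library, FOXL2 and FOXL2NB, against 0.141% of all promoters. That count was 1 with the 5′ end of any transcript (FOXL2NB), against 0.126% of all promoters. It was also 1 with equal numbers of peaks per list (FOXL3), against 0.0942%. Equal numbers of peaks also made FOXL3 the 1 member called in 3 KO and 0 WT libraries. For WT replicate 3 alone the mean difference was 169.1 bp and the count 1 (FOXL3). Requiring −log10 q of at least 3 gave a difference of 0.333 called members, within the spread of the libraries. Neither it nor calls of at least 500 bp moved the other counts beyond 1.5 times. The cause of these changes was otherwise not tested.

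Leaving out 1 library at a time gave 17 to 35 separated members, 0 to 2 in the opposite direction, a mean difference of 517.5 to 967.9 bp, and -0.333 to 1.17 called members. Of all promoters, 37.5% to 65.8% were then separated, and 0.157% to 0.256% in the opposite direction. Leaving out 1 library also gave 0 to 1 members called only in WT, which was FOXH1 without WT replicate 3, and 35 to 36 called in all 6. The replicate numbers were taken only as names of the clones. Same-numbered deviations correlated at 0.17, -0.04 and 0.3, and differently numbered ones at -0.27 to 0.24. With 3 clones per genotype these values cannot decide whether the numbers mark a pairing. With the replicate block, 32 members had WT above KO in all 3 pairs and 1 had KO above WT, against 62.3% and 0.178% of all promoters (smallest possible exact p 0.25). No separated member given in full changed direction under an alternative. Members whose groups overlapped did. SOX9 went from -27.3 bp to 2997 bp with a fold enrichment of at least 4, 96.7 bp with exchanged windows, 1132 bp within 10 kb and -457.8 to 736.2 bp with 1 library left out. In that last setting FOXS1 ranged from -219.2 to 1311 bp, FOXI2 from -486.0 to 283.0 bp and FOXC2 from -24.8 to 43.2 bp. The lists carry no depth, so differences near a peak's edge could not be set against counting error.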
